A study of Mus musculus with 10 samples.

Results

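The 9 genes described here, Otx2, Pou3f1, Sall2, Zic2, Zic5, Utf1, Cdh2, Fgf5 and Fgf15, belong to the step from naive to primed pluripotency and to early ectoderm. They were chosen by name from what is known of that step, with earlier results of these data also known, out of 35427 genes with summed reads. All 9 are accounted for below. Naive pluripotent cells correspond to the early epiblast of the blastocyst and are held there in culture by LIF with inhibitors of MEK and GSK3, a medium called 2i. When FGF signalling through ERK is allowed to act, cells pass through a formative state towards the primed state of the epiblast after implantation, where Fgf5, Otx2 and Pou3f1 are turned on. OTX2 and the POU factor OCT4 then occupy new enhancers, and the ZIC factors and the cadherin switch from Cdh1 to Cdh2 accompany the move towards ectoderm.

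RNA was sequenced from 10 male mouse embryonic stem cell (ESC) lines on a C57BL/6 background: 4 Tdg-/- lines without a wild-type Tdg allele, 3 Tdg+/- lines with 1 such allele and 3 wt lines (Tdg+/+) with 2. Tdg encodes thymine DNA glycosylase, which cuts out oxidised forms of methylated cytosine. The lines came from blastocysts of simultaneous matings between Tdg heterozygous parents, were first grown on inactivated feeder cells, were then kept without feeders in serum-free 2i medium with LIF, and received no treatment. Each line is 1 embryo's line and 1 library, no label names the mating of a line, and p-values therefore measure the spread between lines. All groups share the inhibitor medium, in which a low level of primed genes is the usual state, and in bulk RNA a smaller share of primed cells cannot be told apart from less RNA per cell.

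The libraries held 31095354 to 39916106 reads in genes. Levels are given as CPM, reads scaled to a common library total after TMM, a correction for differences in library composition. Tdg, the targeted gene, lay at 7.76 to 10.6 CPM in Tdg-/- lines, 40.3 to 45.9 CPM in Tdg+/- lines and 86.5 to 93.2 CPM in wt lines, which matches the labelled genotypes. The 5 pluripotency markers Pou5f1, Sox2, Nanog, Zfp42 and Esrrb summed to 2540 to 3280 CPM in Tdg-/- lines, 2450 to 2560 CPM in Tdg+/- lines and 2540 to 2700 CPM in wt lines. Summed over 9 markers, primitive endoderm reached 39.3 to 70.2, 50.4 to 83.4 and 52.8 to 63.0 CPM in Tdg-/-, Tdg+/- and wt lines, and its markers Gata6, Sox17, Dab2 and Foxa2 stayed under 20 reads in every line. The 6 mesendoderm markers summed to at most 17.6 CPM and the 5 trophoblast markers to at most 20.4 CPM in any line. Tdg-/- line 1 stood apart from the other Tdg-/- lines (3077 genes were called against wt without it and 10 with it), so values without it are given for the members and lists whose calls change. Line 1 was the most distant line in the other genotypes too, by chi-square per gene between the reads of paired lines. Pairs with line 1 gave 87.0 to 142 in Tdg-/-, 42.3 and 57.4 in Tdg+/- and 53.9 and 72 in wt lines. Pairs without it gave at most 27.1, 26.6 and 20.8, and the cause was not tested. Genes of chromosome 11 were raised in all Tdg+/- lines (median log2 shift of 0.20 to 0.42) and those of chromosome 16 in wt line 1 (0.40). None of the 9 genes lies on either chromosome.

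Of the 9 genes, 6 were readily measured, Pou3f1 lay near the limit of detection, and Fgf5 and Fgf15 had fewer than 20 reads in every line. Levels per unit of transcript length were taken as CPM without the TMM correction, for each kilobase of transcript. The length was the mean annotated length of a gene's transcripts, weighted by their reads. Utf1 had the highest mean level over the 10 lines (12.7), followed by Otx2 (10.8), Zic2 (8.30), Zic5 (3.77) and Cdh2 (3.25). Sall2 (0.904), Pou3f1 (0.183), Fgf15 (0.107) and Fgf5 (0.0624) came after these. Neighbours overlapped at the top and at the bottom of this order. The range over lines was 7.74 to 20.7 for Utf1, 3.69 to 21.7 for Otx2 and 5.80 to 11.9 for Zic2 on this scale, so these neighbours overlapped, and Zic5 (3.10 to 5.17) overlapped Cdh2 (1.82 to 4.44). The highest value of Sall2 was 1.32, below the lowest value of Cdh2, and the highest value of Pou3f1 was 0.326, below the lowest value of Sall2 (0.451). Pou3f1 (from 0.115 up), Fgf15 (0.0292 to 0.208) and Fgf5 (0.0102 to 0.157) overlapped each other. In the deposited TPM, which use Salmon's own effective lengths, Otx2 came first (mean 10.9 TPM), ahead of Zic5 (6.14 TPM) and Utf1 (4.10 TPM). For Zic2, Utf1 and Pou3f1 those effective lengths were 2.30 to 3.08, 2.15 to 2.78 and 2.00 to 2.58 times the annotated length of the main transcript, which lowers their TPM. Most of the Zic5 TPM belonged to the 705-base processed transcript Zic5-202 (2.38 to 6.57 TPM per line). The coding transcript Zic5-201 had 1.21 to 2.30 TPM.

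**Figure D1:**
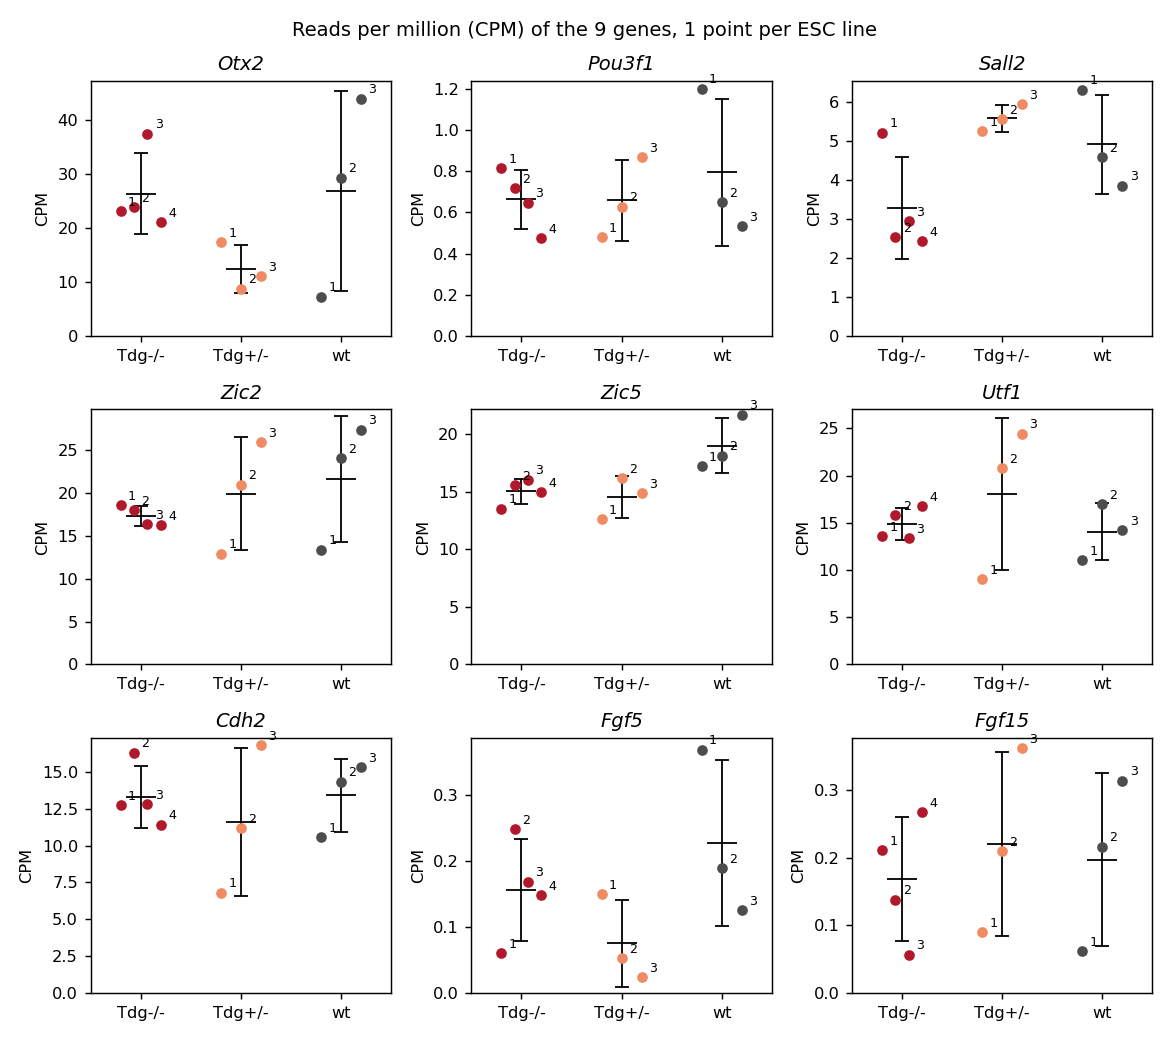
Normalised read counts (CPM, vertical axis from 0, with a scale for each gene) of the 9 genes in the Tdg-/-, Tdg+/- and wt lines. Each numbered point is 1 line, the horizontal mark is the mean and the bar is 1 SD (n = 4, 3 and 3 lines). The Otx2 points of Tdg-/- lines (21.2 to 37.5 CPM) all lie above those of Tdg+/- lines (8.81 to 17.4 CPM), while the wt lines span both.

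The 3 comparisons of genotypes and a trend over the number of Tdg alleles were tested with edgeR's quasi-likelihood test, with Benjamini-Hochberg adjustment over all genes tested and a threshold of 0.05. Of the 9 genes, 7 had the 20 reads in at least 1 line that the test required. Between Tdg-/- and wt ESCs, 0 of the 7 passed (1 gene, Zic5, had an unadjusted p under 0.05, and DESeq2 called 0), where 0.0718% of all 13926 genes were called and 15.9% had such an unadjusted p. Between Tdg+/- and wt ESCs, 0 of the 7 passed in edgeR (1, again Zic5, at an unadjusted p under 0.05, and 0 in DESeq2), against 0.0288% and, unadjusted, 17% of 13880 genes. Between Tdg-/- and Tdg+/- ESCs, Otx2 was higher and none of the 7 was lower in edgeR, where 3.52% of 13962 genes were called higher and 5.51% lower. Without adjustment, 1 of the 7 had a p under 0.05 in each direction (Otx2 higher, Sall2 lower), beside 16.4% of all genes higher and 18.8% lower. DESeq2 called these same 2 genes past the adjusted threshold, with 12% of all genes in each direction. For the trend over alleles, 0 of the 7 passed in edgeR (1, Zic5, at an unadjusted p under 0.05, and 0 in DESeq2), against 0.0354% and, unadjusted, 14% of 14105 genes. The median log2 fold change of the 7 was −0.23 for Tdg-/- against wt, −0.22 for Tdg+/- against wt and 0.01 for Tdg-/- against Tdg+/-, beside −0.01, −0.02 and −0.02 over all genes. The first 2 of these comparisons share the wt lines.

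**Figure D2:**
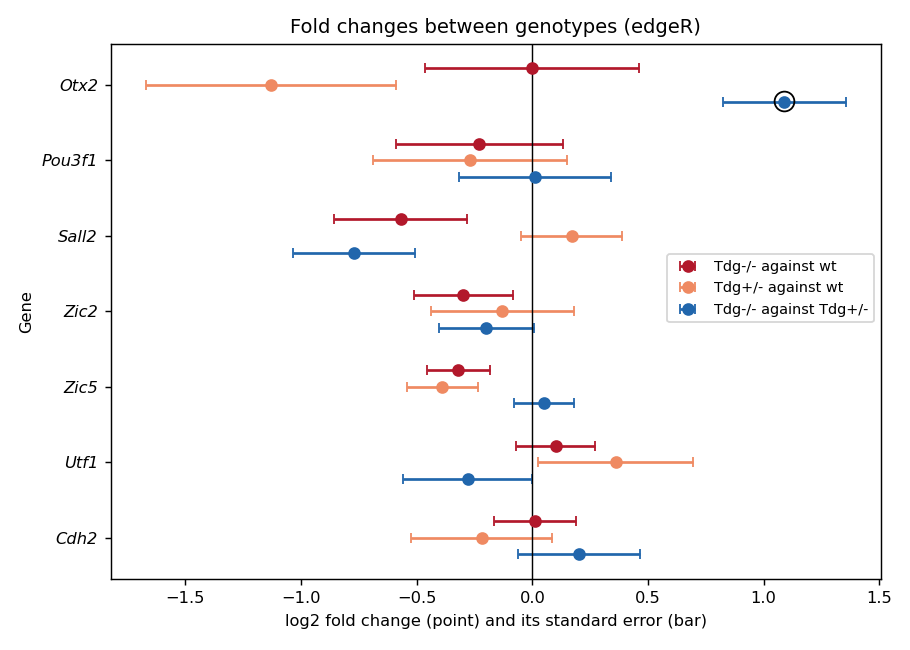
The log2 fold change (horizontal axis, point) and its standard error (bar) from edgeR for the 7 tested genes in Tdg-/- against wt, Tdg+/- against wt and Tdg-/- against Tdg+/- ESCs. The circled point, Otx2 in Tdg-/- against Tdg+/- ESCs (1.09 ± 0.266), is the 1 value past the adjusted threshold.

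Otx2 (ENSMUSG00000021848, chromosome 14) encodes the homeodomain factor that moves OCT4 to the enhancers of the formative and primed state and later patterns the forebrain. It was at 23.1, 23.9, 37.5 and 21.2 CPM in Tdg-/- lines 1 to 4. Tdg+/- lines 1 to 3 had 17.4, 8.81 and 11.1 CPM, and wt lines 1 to 3 had 7.29, 29.4 and 44.0 CPM. Every Tdg-/- line was thus above every Tdg+/- line, as was the case for 11.4% of all genes, and the wt lines held both the lowest and the highest value of all 10. The means were 26.4 ± 7.50 CPM in Tdg-/- lines (SD, n = 4), 12.4 ± 4.43 CPM in Tdg+/- lines (SD, n = 3) and 26.9 ± 18.5 CPM in wt lines (SD, n = 3). Otx2 was 2.13-fold higher in Tdg-/- than in Tdg+/- ESCs in edgeR, a log2 difference of 1.09 ± 0.266 (SE) with an adjusted p = 0.041. Tdg+/- against wt gave a log2 fold change of −1.13 ± 0.542 (SE; edgeR adjusted p = 0.336), and Tdg-/- against wt a fold of 0.998 with a log2 interval of −0.91 to 0.90 (1.96 standard errors to each side). Its range over the 10 lines was 6.04-fold, a width reached by 2.44% of the 12194 genes that averaged 1 CPM or more, where the median gene spanned 1.77-fold.

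The Otx2 call between Tdg-/- and Tdg+/- ESCs was lost in edgeR without Tdg-/- line 2 (adjusted p = 0.0937), line 3 (0.116) or line 4 (0.0736) and without Tdg+/- line 2 (0.134) or line 3 (0.137), and it held without Tdg-/- line 1 (0.0127) or Tdg+/- line 1 (0.0261). It was also lost when all 10 lines shared 1 estimate of spread (adjusted p = 0.112), with transcript length as an offset (0.0665), with the replicate number as a block (0.151) and when genes of chromosomes 11 and 16 were left out (0.0528), while the log2 fold change stayed between 0.87 and 1.41 in all 15 alternatives. With 3 surrogate variables, covariates estimated from the expression data, Otx2 was lower in Tdg+/- than in wt ESCs as well (log2 fold change −0.64, adjusted p = 0.00323), in a fit that called 13.4% of all genes lower and left 1 residual degree of freedom.

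Reads were assigned to several Otx2 transcripts, and Salmon divides the reads of shared exons between them by estimation, so the following reads are estimates and were looked at after the gene's values were seen. Otx2-201 held 59.8% to 78.4% of Otx2 reads in Tdg-/- lines, 84.8% to 90.6% in Tdg+/- lines and 71.8% to 81.4% in wt lines. Otx2-210, whose first exon starts 8713 bases upstream of the Otx2-201 start in the GRCm38 annotation, had 146.0, 190.0 and 131.7 estimated reads in Tdg-/- lines 2, 3 and 4, which is 16.9%, 14.2% and 18.5% of Otx2 reads. In Tdg-/- line 1 it had 13.6 reads (1.77%), in Tdg+/- lines 6.3, 0.0 and 0.0 reads, and in wt lines 15.2, 0.0 and 0.0 reads. These 3 Tdg-/- lines therefore differed from the other 7 lines in the reads estimated for Otx2-210, the transcript with the far upstream first exon. In wt line 3, with the highest Otx2 level, that estimate was 0.0. Reads at the exon itself were not counted. In that annotation the first exon of Otx2-210 lies inside the single exon of Gm49154, a noncoding gene on the same strand, and inside the span of the antisense gene Otx2os1. Neither was analysed here, and their part in these reads was not tested. Otx2-202, from a start 2407 bases upstream of Otx2-201, had 37.0 to 157.5 estimated reads in Tdg-/- lines, 0.0 to 20.7 in Tdg+/- lines and 42.9 to 174.4 in wt lines. The promoters at or close to the starts of Otx2-201 and Otx2-202 are printed because reads were divided between transcripts from these starts. The RefSeq start of the first lies 3 bases from that of Otx2-201. That of the second lies 5 bases from the Otx2-202 start and coincides with those of Otx2-205, which had 0.0 reads in every line, and Otx2-207, which had 30.3 estimated reads over all 10 lines. Both run from 250 bases before to 50 bases after the RefSeq start (build GRCm38.p6, minus strand, 5′ to 3′), and capitals mark CpG, the substrate of the methylation cycle in which TDG acts.
Otx2 at the Otx2-201 start (chr14:48665060-48665359): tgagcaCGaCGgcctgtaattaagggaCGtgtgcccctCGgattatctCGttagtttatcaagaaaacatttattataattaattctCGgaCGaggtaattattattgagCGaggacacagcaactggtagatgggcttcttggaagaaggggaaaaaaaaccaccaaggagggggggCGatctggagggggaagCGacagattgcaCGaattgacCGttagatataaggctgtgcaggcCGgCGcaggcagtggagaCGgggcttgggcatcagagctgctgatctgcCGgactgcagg
Otx2 near the Otx2-202 start (chr14:48667459-48667758): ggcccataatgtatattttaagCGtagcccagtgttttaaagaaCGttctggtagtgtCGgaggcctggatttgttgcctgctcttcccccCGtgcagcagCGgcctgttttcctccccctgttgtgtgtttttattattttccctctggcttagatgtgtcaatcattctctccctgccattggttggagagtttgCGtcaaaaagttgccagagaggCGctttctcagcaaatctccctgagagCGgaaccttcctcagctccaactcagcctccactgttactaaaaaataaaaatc
The first window holds 16 CpG and the second 8, where the median of 32851 RefSeq promoters of the same length is 7 and 33.0% and 48.6% of them hold at least as many.

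Sall2 (ENSMUSG00000049532, chromosome 14) encodes a zinc-finger factor of the spalt family that is found in the epiblast and in the neural tube. It was at 5.22, 2.54, 2.95 and 2.44 CPM in Tdg-/- lines 1 to 4, against 5.27, 5.57 and 5.95 CPM in Tdg+/- lines and 6.33, 4.595 and 3.86 CPM in wt lines. Tdg-/- lines 2, 3 and 4 were below all other lines and Tdg-/- line 1 lay among the wt lines, so that every Tdg-/- line was below every Tdg+/- line, as were 13.1% of all genes. Tdg-/- against Tdg+/- ESCs gave a log2 fold change of −0.77 ± 0.264 (SE), with adjusted p = 0.0791 in edgeR, and Tdg-/- against wt ESCs −0.57 ± 0.289 (SE; edgeR adjusted p = 0.343). Tdg+/- against wt gave 0.17 ± 0.218 (SE; edgeR adjusted p = 0.722). DESeq2 called Sall2 lower in Tdg-/- than in Tdg+/- ESCs (adjusted p = 0.0328) along with 12% of all genes called lower. Without Tdg-/- line 1, Sall2 was lower than in wt (log2 fold change −0.87, adjusted p = 0.0295 from edgeR) and lower than in Tdg+/- ESCs (−1.08, adjusted p = 0.00188), in fits that called 10.5% and 22.2% of all genes lower.

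Tdg-/- line 1, whose Sall2 level lay among those of the wt lines, differed from all other lines in its Sall2 transcripts. Sall2 is read from a pair of first exons whose starts lie 12439 bases apart in the GRCm38 annotation. In Tdg-/- line 1 all 173.0 estimated reads were assigned to Sall2-202, the downstream start, and 0.0 to Sall2-201. In Tdg-/- lines 2, 3 and 4, Sall2-201 held 68.6%, 64.1% and 73.5% of 82 to 105 reads, in Tdg+/- lines 72.1% to 89.9%, and in wt lines 52.6% to 84.1%. No other line had fewer than 60.3 estimated reads on Sall2-201. This was seen after the values were known and was not tested. The promoters of both starts are printed to show how unlike they are (GRCm38.p6, minus strand, 5′ to 3′, CpG in capitals, from RefSeq).
Sall2 at the Sall2-201 start (chr14:52328621-52328920): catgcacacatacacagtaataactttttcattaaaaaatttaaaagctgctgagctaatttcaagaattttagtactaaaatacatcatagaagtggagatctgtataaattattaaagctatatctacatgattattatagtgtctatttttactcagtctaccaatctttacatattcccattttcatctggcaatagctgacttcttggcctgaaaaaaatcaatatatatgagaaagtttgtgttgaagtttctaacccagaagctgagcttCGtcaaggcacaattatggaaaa
Sall2 at the Sall2-202 start (chr14:52316274-52316573): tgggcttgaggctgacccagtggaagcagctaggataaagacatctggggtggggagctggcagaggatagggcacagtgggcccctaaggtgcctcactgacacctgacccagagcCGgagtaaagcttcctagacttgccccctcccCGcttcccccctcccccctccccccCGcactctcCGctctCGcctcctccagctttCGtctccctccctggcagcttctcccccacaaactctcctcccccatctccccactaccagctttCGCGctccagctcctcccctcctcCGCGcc
The Sall2-201 window holds 1 CpG and 30.3% G and C bases, and 94.6% of all RefSeq promoters hold at least as many CpG. The Sall2-202 window holds 10 CpG and 65.0% G and C bases, and 43.5% hold at least as many. The RefSeq start of the first window lies 92 bases from the Sall2-201 start of the annotation, and that of the second coincides with Sall2-202.

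**Figure D3:**
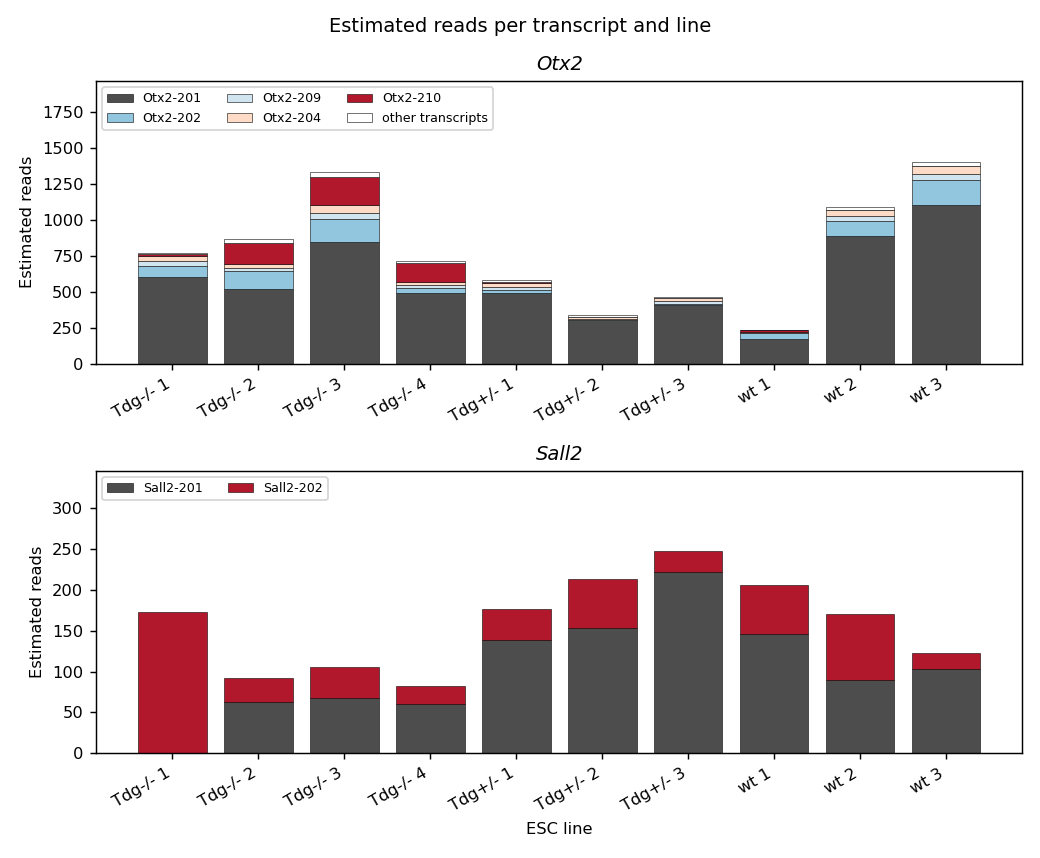
Estimated reads (vertical axis, from 0) assigned by Salmon to the transcripts of Otx2 and Sall2 in each of the 10 lines. Otx2-210 has 131.7 to 190.0 reads in Tdg-/- lines 2, 3 and 4 and at most 15.2 elsewhere, and Sall2-201 has 0.0 reads in Tdg-/- line 1 alone.

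Zic2 and Zic5, neighbouring genes on chromosome 14 whose starts lie 9758 bases apart in the GRCm38 annotation and which are transcribed in opposite directions, encode zinc-finger factors of the neural plate. ZIC2 also binds enhancers in ESCs. Zic5 (ENSMUSG00000041703) was at 13.5, 15.6, 16.1 and 15.0 CPM in Tdg-/- lines, 12.6, 16.2 and 14.9 CPM in Tdg+/- lines, and 17.3, 18.1 and 21.7 CPM in wt lines. All 7 lines with a mutant Tdg allele lay below all 3 wt lines, which 1.16% of 13701 genes did. The separation from wt was shared by 5.33% of genes for Tdg-/- and by 9.1% for Tdg+/- lines. In TPM, Zic5 was at 6.38, 7.28 and 7.60 in wt lines. The Tdg-/- lines (4.94 to 5.43 TPM) still lay below these, but the Tdg+/- lines (4.07, 6.58 and 8.39 TPM) overlapped them. These TPM include the short processed transcript Zic5-202, at 2.38 to 6.57 TPM per line with 12.07% of all Zic5 reads. The coding transcript Zic5-201 alone had 1.21 to 1.70 TPM in Tdg-/-, 1.69 to 1.97 in Tdg+/- and 2.02 to 2.30 in wt lines. There both mutant genotypes lay below wt, though Salmon's division of reads between transcripts is an estimate. The differences were small. Tdg-/- against wt gave a log2 fold change of −0.32 ± 0.135 (SE; unadjusted p = 0.0419, adjusted p = 0.303 in edgeR) and Tdg+/- against wt −0.39 ± 0.153 (SE; unadjusted p = 0.0309, adjusted p = 0.248 in edgeR), and neither passed. Against Tdg+/-, Tdg-/- gave 0.05 ± 0.131 (SE; edgeR adjusted p = 0.818). With transcript length as an offset, the log2 fold changes against wt were −0.23 for Tdg-/- and −0.23 for Tdg+/- (adjusted p = 0.491 and 0.685 in edgeR). With 3 surrogate variables Zic5 was lower in Tdg+/- than in wt ESCs (log2 fold change −0.44, adjusted p = 0.0146 from edgeR), in the fit with 1 residual degree of freedom that called 13.4% of all genes lower.

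Zic2 (ENSMUSG00000061524) was at 18.6, 18.01, 16.4 and 16.3 CPM in Tdg-/- lines, against 12.9, 21.0 and 25.9 CPM in Tdg+/- lines and 13.4, 24.1 and 27.4 CPM in wt lines. The Tdg-/- lines were close together and lay inside the ranges of both other genotypes. No comparison passed, with log2 fold changes of −0.30 for Tdg-/- against wt (adjusted p = 0.449 from edgeR), −0.13 for Tdg+/- against wt (0.867) and −0.20 for Tdg-/- against Tdg+/- (0.493). The Tdg+/- value turns to 0.23 when Salmon's effective length enters as an offset, since that length was 5607 to 5770 bases in Tdg+/- lines and 6367 to 7519 bases in wt lines. The ratio of Zic2 to Zic5 reads was 1.37, 1.16, 1.02 and 1.09 in Tdg-/- lines, 1.02, 1.30 and 1.74 in Tdg+/- lines and 0.777, 1.33 and 1.26 in wt lines, so the neighbours did not keep a fixed ratio between lines.

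Utf1 (ENSMUSG00000047751, chromosome 7) encodes a chromatin-bound protein of pluripotent cells that is lost as they differentiate, and it is shared by naive and primed states. It was at 13.6, 15.8, 13.3 and 16.8 CPM in Tdg-/- lines, 9.04, 20.8 and 24.5 CPM in Tdg+/- lines, and 11.01, 16.98 and 14.2 CPM in wt lines. The Tdg+/- lines held both the lowest and the highest value. The log2 fold changes were 0.10 for Tdg-/- against wt (adjusted p = 0.741 from edgeR), 0.36 for Tdg+/- against wt (0.627) and −0.28 for Tdg-/- against Tdg+/- (0.488). Without Tdg+/- line 1, Utf1 was lower in Tdg-/- than in Tdg+/- ESCs (log2 fold change −0.60, adjusted p = 0.0411), in a fit that called 6.62% of all genes lower.

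Pou3f1 (ENSMUSG00000090125, chromosome 4), also called Oct6, encodes a POU factor of the primed epiblast and early neural cells. It had 27, 26, 23 and 16 reads in Tdg-/- lines, 16, 24 and 36 reads in Tdg+/- lines, and 39, 24 and 17 reads in wt lines, or 0.48 to 1.2 CPM over the 10 lines. The genotypes overlapped fully. The log2 fold changes were −0.23 (adjusted p = 0.724 from edgeR), −0.27 (0.783) and 0.01 (0.992) for Tdg-/- against wt, Tdg+/- against wt and Tdg-/- against Tdg+/-, with standard errors of 0.329 to 0.421. At this depth the Tdg-/- against wt difference is held only to a log2 interval of −0.94 to 0.47.

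Cdh2 (ENSMUSG00000024304, chromosome 18) encodes N-cadherin, the adhesion molecule that replaces E-cadherin in the epiblast's descendants. It was at 12.7, 16.3, 12.8 and 11.4 CPM in Tdg-/- lines, 6.79, 11.2 and 16.8 CPM in Tdg+/- lines, and 10.6, 14.4 and 15.3 CPM in wt lines. The Tdg+/- lines again held the lowest and the highest value, and no comparison passed (log2 fold changes 0.01, −0.22 and 0.20 for Tdg-/- against wt, Tdg+/- against wt and Tdg-/- against Tdg+/-, adjusted p = 0.975, 0.754 and 0.613 from edgeR). Fibroblasts also express Cdh2. The 12 fibroblast markers of the feeder cells summed to 38.4 to 82.0 CPM in Tdg-/- lines, 45.1 to 103 CPM in Tdg+/- lines and 75.6 to 93.9 CPM in wt lines, with Twist2 under 20 reads in every line, and their part in the Cdh2 level was not tested. The Tdg+/- line with the highest Cdh2 (line 3) also had the highest sum of these markers, while the line with the lowest Cdh2 (line 1) had 78.6 CPM of them. Cdh2-202 held 81.2% to 89.7%, 70.8% to 86.1% and 83.6% to 87.3% of Cdh2 reads in Tdg-/-, Tdg+/- and wt lines.

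The 2 FGF ligands were nearly silent. Fgf5 (ENSMUSG00000029337, chromosome 5), the best known marker of the primed epiblast, had 2, 9, 6 and 5 reads in Tdg-/- lines, 5, 2 and 1 reads in Tdg+/- lines, and 12, 7 and 4 reads in wt lines. Fgf15 (ENSMUSG00000031073, chromosome 7), an FGF of the early neural tube and later an ileal hormone, had 7, 5, 2 and 9 reads in Tdg-/- lines, 3, 8 and 15 reads in Tdg+/- lines, and 2, 8 and 10 reads in wt lines. Both were detected in every line and both fell short of the 20 reads required, so neither was tested and no fold is given. Fgf4, the FGF that ESCs themselves secrete, lay at 242 to 366 CPM in Tdg-/- lines, 354 to 370 CPM in Tdg+/- lines and 325 to 349 CPM in wt lines. The promoter window of Fgf5 holds 29 CpG, and 12.9% of RefSeq promoters hold as many or more. Those of Utf1 and Zic5 hold 17 and 15.

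**Figure D4:**
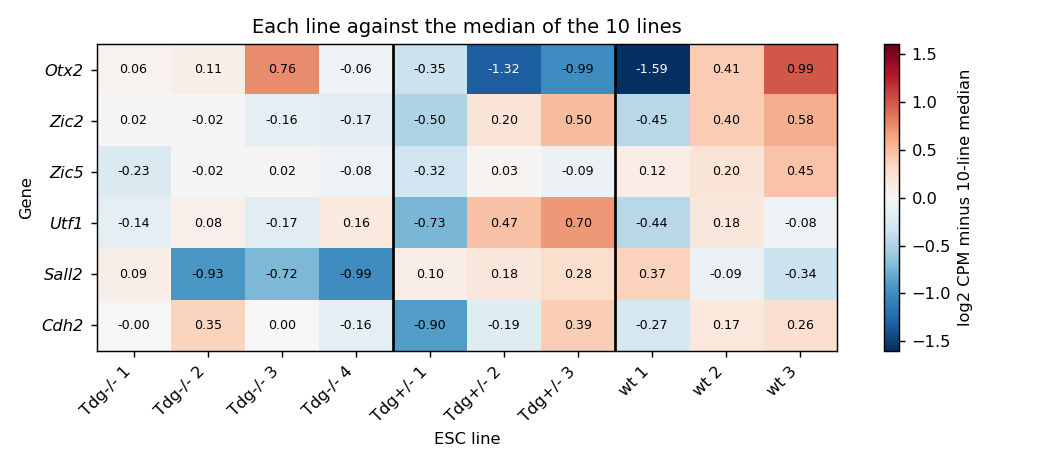
Each line's log2 CPM minus the median of the 10 lines (colour and printed value) for the 6 genes that averaged 1 CPM or more, with Tdg-/- lines on the left, Tdg+/- lines in the middle and wt lines on the right. Tdg+/- line 1 is the lowest of all lines for 4 genes (Zic2, Zic5, Utf1 and Cdh2), and wt line 3 is the highest for 3 (Otx2, Zic2 and Zic5).

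Set beside each other, the 6 genes that averaged 1 CPM or more did not move as a block. Tdg+/- line 1 was lowest of the 10 lines for 4 of them, with log2 deviations from the 10-line median of −0.50 (Zic2), −0.32 (Zic5), −0.73 (Utf1) and −0.90 (Cdh2), but lay at 0.10 for Sall2. In wt line 3, Otx2 (0.99), Zic2 (0.58) and Zic5 (0.45) were at their highest, while Sall2 was at −0.34. In wt line 1, Otx2 was at its lowest (−1.59) and Sall2 at its highest (0.37). Of the 9 genes, 4 (Otx2, Zic2, Zic5 and Sall2) lie on chromosome 14, whose genes as a whole had line medians between −0.05 and 0.03.

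Likeness of pattern was measured as the root mean square difference of log2 CPM over the 10 lines after each gene's mean was subtracted, among 12193 other genes, and is a description over lines that share libraries. The nearest genes to Sall2 were Igf2r (0.084), Nup188 (0.103) and Gnl1 (0.104), where Sall2 itself varied by 0.484 about its mean. For Zic2 they were Enc1 (0.119), Kndc1 (0.132) and Tnfrsf8 (0.155), for Zic5 Wdr35 (0.105), mt-Nd3 (0.108) and Nabp2 (0.122), for Utf1 Tut1 (0.159), Tmem79 (0.164) and P2ry2 (0.167), and the nearest to Cdh2 was Tnfrsf8 (0.155). The nearest to Otx2 were 1700019D03Rik (0.36) and the pseudogenes Gm4606 (0.363) and Znf41-ps (0.366), beside its own variation of 0.822. The measure is not scaled to that variation, which was 0.208 for Zic5, 0.357 for Zic2, 0.363 for Cdh2 and 0.395 for Utf1. Larger distances for Otx2 therefore do not mean that it lacked genes of similar pattern. Among themselves the closest were Cdh2 and Zic2 (0.249), Zic2 being the 59th nearest gene to Cdh2, and the farthest were Otx2 and Sall2 (1.187).

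Each list of other genes of the same step held 0 or 1 gene called by edgeR between Tdg-/- and Tdg+/- ESCs. Of 20 further primed and formative genes, 19 were tested, and there 0 were higher and 1 was lower in edgeR (all genes 3.52% and 5.51%), with unadjusted p under 0.05 for 2 that were higher and 4 that were lower (16.4% and 18.8%) and 1 higher and 2 lower in DESeq2 (12% each). This 1, Cldn6, a tight junction protein of embryonic epithelium, was lower in Tdg-/- than in Tdg+/- ESCs (2.98 to 5.65 CPM against 7.18 to 10.1 CPM, log2 fold change −0.91, adjusted p = 0.0416 from edgeR), and 0 passed in the comparisons with wt or the trend (4, 2 and 4 at an unadjusted p under 0.05 in Tdg-/- against wt, Tdg+/- against wt and the trend, where all genes gave 15.9%, 17% and 14%, and 0 in DESeq2). Without Tdg-/- line 1, edgeR called 1 of them higher and 2 lower against wt, in a fit that called 11.7% of all genes higher and 10.5% lower, and 3 higher and 3 lower against Tdg+/- (all genes 18.4% and 22.2%). Of 14 naive genes, 0 passed in any comparison in edgeR, with unadjusted p under 0.05 for 1 that was higher and 5 that were lower between Tdg-/- and Tdg+/- ESCs, 2 in each of the others, and 5 called by DESeq2 (1 higher and 4 lower) between Tdg-/- and Tdg+/- ESCs and 0 elsewhere. Without Tdg-/- line 1, edgeR called 1 naive gene higher and 3 lower against wt, and 1 higher and 8 lower of the 14 against Tdg+/-, beside the same shares of all genes. Their summed level was 2460 to 3060 CPM in Tdg-/- lines, 2970 to 3300 CPM in Tdg+/- lines and 2760 to 3150 CPM in wt lines. The naive genes with the smallest p in Tdg-/- against wt were Klf5, a Krüppel-like factor (log2 fold change −0.47, adjusted p = 0.297), and Zfp42, also called Rex1 (0.40, adjusted p = 0.298). Pou5f1, which encodes OCT4 and serves both states, and Sall4 gave 0.46 and −0.35 there (adjusted p = 0.296 and 0.306). Of the 3 genes listed for both states, 1 was called higher and 1 lower between Tdg-/- and Tdg+/- ESCs by DESeq2, and in both comparisons of Tdg-/- ESCs by edgeR without Tdg-/- line 1.

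Of 12 neural ectoderm genes, 6 or 7 were tested, and Nes, an intermediate filament of neural progenitors, was lower in Tdg-/- than in Tdg+/- ESCs (6.10 to 14.3 CPM against 15.2 to 19.1 CPM, log2 fold change −0.95, adjusted p = 0.0491 from edgeR). Nes was the 1 call of edgeR and of DESeq2 in this list. Of the 6 tested there, 3 lay above 0 and 3 below (median log2 fold change 0.01), and unadjusted p under 0.05 held for 1 lower and 0 higher. In Tdg-/- against wt, 4 of 7 lay above 0 and 3 below (median 0.13), and 0 had an unadjusted p under 0.05. Among paralogs of the 9 genes, Cdh3, which encodes P-cadherin, was lower in the same comparison (3.25 to 5.52 CPM against 5.96 to 14.5 CPM, log2 fold change −1.12, adjusted p = 0.0451). Cdh1, which encodes E-cadherin, gave −0.39 (adjusted p = 0.123) and lay at 230 to 360 CPM in Tdg-/- lines, 313 to 403 CPM in Tdg+/- lines and 344 to 399 CPM in wt lines. Sall1 (24.1 to 43.1 CPM over the lines) and Sall3 (2.12 to 6.56 CPM) gave −0.48 and −0.53 (adjusted p = 0.0776 and 0.223). Pou3f2, Pou3f3, Cdh4 and Fgf3 reached at most 2.68 CPM in any line. Of these paralogs, 10 were tested between Tdg-/- and Tdg+/- ESCs, where Cdh3 was the 1 call of edgeR, while unadjusted p under 0.05 held for 4 lower and 0 higher and DESeq2 called 3 lower. Among 12 genes of the ERK response, Spred1, an inhibitor of RAS signalling, was higher in Tdg-/- than in Tdg+/- ESCs (36.0 to 43.0 CPM against 18.5 to 31.3 CPM, log2 fold change 0.74, adjusted p = 0.0415), while unadjusted p under 0.05 held for 3 that were higher and 2 that were lower, and DESeq2 called 3 higher and 0 lower. The shares of all genes given above for this comparison, 3.52% higher and 5.51% lower in edgeR and 12% each way in DESeq2, stand behind these counts of calls. Unadjusted, the shares were 16.4% higher and 18.8% lower there. In either direction they were 15.9%, 17% and 14% in Tdg-/- against wt, Tdg+/- against wt and the trend. Of the FGF receptors, Fgfr1 was at 9.82 to 15.4, 14.5 to 17.3 and 13.1 to 21.8 CPM and Fgfr2 at 1.35 to 2.11, 1.14 to 2.77 and 1.78 to 6.33 CPM in Tdg-/-, Tdg+/- and wt lines, and 0 of 3 tested receptors passed in any comparison in edgeR or DESeq2 (2, 0, 1 and 2 at an unadjusted p under 0.05 in Tdg-/- against wt, Tdg+/- against wt, Tdg-/- against Tdg+/- and the trend). In wt lines, Cldn6, Nes, Cdh3 and Spred1 lay at 4.89 to 19.2, 9.97 to 14.5, 4.57 to 8.67 and 18.9 to 43.3 CPM. None of these 4 passed in edgeR for Tdg-/- against wt (adjusted p = 0.298, 0.349, 0.479 and 0.561) or Tdg+/- against wt (0.864, 0.293, 0.336 and 0.433). The calls of Cldn6, Nes, Cdh3 and Spred1 held without Tdg-/- line 1 (adjusted p = 0.0076, 0.00126, 0.0156 and 0.0116) and were lost without Tdg-/- line 2 (0.0939, 0.12, 0.116 and 0.109), line 3 (0.128, 0.146, 0.127 and 0.125) or line 4 (0.0852, 0.118, 0.099 and 0.0898). They were lost likewise without Tdg+/- line 2 (0.133, 0.139, 0.152 and 0.137) or line 3 (0.0983, 0.154, 0.13 and 0.0594), and without Tdg+/- line 1 for all but Cdh3 (0.0709, 0.0576, 0.024 and 0.0649). All 4 were lost without genes of chromosomes 11 and 16 (0.0503, 0.0572, 0.0553 and 0.0553) and with the replicate number as a block (0.151, 0.175, 0.191 and 0.151). Cldn6, Nes and Cdh3 were lost with the length offset (0.0794, 0.0648 and 0.057), and Cldn6 and Spred1 with all 10 lines in the fit (0.133 and 0.0665). Without Tdg-/- line 1, the calls lower than in wt and lower than in Tdg+/- ESCs numbered 2 and 1 for the neural ectoderm genes, 3 and 5 for the paralogs, 0 and 1 for the receptors and 1 and 2 for the ERK genes. These 2 fits called 10.5% and 22.2% of all genes lower. The only higher calls in these 4 lists without that line were 3 ERK genes against Tdg+/-, where 18.4% of all genes were called higher.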

How the data were processed

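RNA from 10 mouse ESC lines was prepared as stranded total RNA libraries after ribosomal depletion. Per the submitters' processing notes, quantification used Salmon 0.8.1 and GRCm39. The deposited estimated counts (expected counts) per transcript are not normalized, and the deposited TPM and effective lengths were computed by the authors' Salmon run. Gene totals were formed from them and rounded to integers. Identifiers were paired with genes through a GRCm38 annotation (115153 of 116357 transcripts, 98.97%), used for names, chromosomes and distances between starts, and the unpaired reads (0.472% to 0.499% per line) were left out. Promoters came from RefSeq (GRCm38.p6), where 5 of the 9 genes matched.

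Genes reaching 20 reads in 1 or more of the lines compared were tested with edgeR 4.0.16 (TMM, quasi-likelihood) in R 4.3.3, using the lines of the 2 genotypes compared, or all 10 for the trend. Standard errors follow from the log2 fold change and the F statistic. The tests were checked on simulated counts with the same spread for all genes and no line that stood apart. That check cannot show how the tests behave with such a line. Alternatives were RLE size factors, DESeq2 1.42.0, no filter, a shared spread, a transcript length offset, a replicate block, 3 surrogate variables (sva 3.50.0, as in the study's own adjustment), no genes of chromosomes 11 and 16, leaving out each line, and TPM. Same-numbered Tdg-/- and wt lines deviated together weakly (correlations of 0.144 to 0.197 in all 3 pairs), though no label gives the number a meaning. Differently numbered pairs gave −0.218 to 0.093. Deviations were taken from each genotype's mean, so higher values in some pairs bring lower values in others. The named genes were the 9 members, listed genes past the threshold or the 2 with the smallest p, detected paralogs, and the 3 nearest genes by pattern, of which some are not reported here. The members and lists were chosen with earlier results of these data known. No 2 lines of a genotype agreed within sampling noise (at least 18.95 chi-square units per gene).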

Additional observations from a re-analysis of the deposited data

Results flagged for a closer look

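The highest of the 4 Tdg-/- lines in Otx2, line 3 at 37.5 CPM, stood off from the other 3 (21.2 to 23.9 CPM) by 0.835 of the genotype's whole range, past Dixon's 95% critical value for 4 samples. Chance alone puts about 1 in 20 groups past that value, and 6 genes were examined. Without this line the log2 fold change of Otx2 in Tdg-/- against Tdg+/- ESCs was 0.87 (adjusted p = 0.116 from edgeR).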

How the results depend on the processing

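Of 487 alternative values, 385 kept their direction and their side of the threshold, 45 lost a call, 7 gained one and 50 changed sign. The changes of sign concerned log2 fold changes that were not called, and the cause was not tested unless a value shows it. Depth limits Pou3f1, Fgf5 and Fgf15.

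In Tdg-/- against wt, 10 genes were called in all, with DESeq2 93, without the filter 19, with 3 surrogate variables 24 and without 1 line 3 to 3077 (3077 without Tdg-/- line 1, 5 without line 2, 3 without line 4 and 5 without wt line 3). Of the 9 genes 0 to 1 were called lower without 1 line (Sall2, without Tdg-/- line 1). In Tdg+/- against wt, 4 genes were called, with DESeq2 744, without the filter 269, with all 10 lines 23, with the length offset 0, with 3 surrogate variables 3713 (2 of the 9 genes lower, Otx2 and Zic5) and without 1 line 0 to 207 (207 without Tdg+/- line 1). In Tdg-/- against Tdg+/-, 1261 genes were called, with DESeq2 3346, with the length offset 464, with 3 surrogate variables 5793, without genes of chromosomes 11 and 16 499 and without 1 line 12 to 5659 (5659 without Tdg-/- line 1, at most 22 without any of Tdg-/- lines 2 to 4 or Tdg+/- lines 2 and 3). The number of the 9 genes called higher there was 0 with all 10 lines, the length offset, or genes of chromosomes 11 and 16 left out, and 0 to 1 without 1 line. The number called lower was 1 with DESeq2 and with 3 surrogate variables (Sall2), and 0 to 1 without 1 line. For the trend, 5 genes were called, with DESeq2 51, without the filter 12, with 3 surrogate variables 10 and without 1 line 2 to 11.

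Same-numbered Tdg-/- and wt lines deviated together weakly (correlations of 0.144 to 0.197). With the replicate block 5 genes were called in that comparison and the log2 fold change of Otx2 was 0.36. In the other comparisons the lines share only a number (pair correlations of −0.037 to 0.113 for Tdg+/- and wt and −0.119 to 0.054 for Tdg-/- and Tdg+/-). With the block 33 genes were called in Tdg+/- against wt and 6 in Tdg-/- against Tdg+/-, where 0 of the 9 genes was higher.

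Signs changed as follows. For Tdg-/- against wt, Otx2 gave 0.00223 with RLE size factors, 0.00208 with DESeq2, 0.43 with 3 surrogate variables and 0.01 without chromosomes 11 and 16. Utf1 gave −0.06 with the length offset and −0.26 with surrogate variables, and Cdh2 −0.00198 without the filter, −0.01 with all 10 lines, −0.03 with the length offset and −0.16 with surrogate variables. With the length offset, Zic2 gave 0.23 in Tdg+/- against wt, and in Tdg-/- against Tdg+/- Zic5 gave −0.02 and Pou3f1 −0.31 (−0.01 without the filter, −0.02 without chromosomes 11 and 16). In the trend, Otx2 gave 0.00392, Utf1 0.05 and Cdh2 0.00269 with the length offset, and Pou3f1 −0.04, Utf1 0.08, Sall2 −0.01 and Cdh2 0.06 with surrogate variables. With TPM in place of CPM, the log2 ratio of group means changed sign for Zic2 in Tdg+/- against wt (0.30, against −0.12 in CPM), Zic5 in Tdg-/- against Tdg+/- (−0.27, against 0.05) and Utf1 in Tdg-/- against wt (−0.24, against 0.08).

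Without 1 line, the ranges that crossed 0 were, for Tdg-/- against wt, −0.45 to 0.55 (Otx2), −0.45 to 0.18 (Pou3f1), −0.05 to 0.26 (Utf1) and −0.13 to 0.12 (Cdh2). For Tdg+/- against wt they were −0.52 to 0.16 (Pou3f1), −0.37 to 0.12 (Zic2) and −0.58 to 0.07 (Cdh2), for Tdg-/- against Tdg+/- −0.17 to 0.26 (Pou3f1), −0.44 to 0.03 (Zic2), −0.05 to 0.15 (Zic5) and −0.07 to 0.57 (Cdh2), and for the trend −0.34 to 0.13 (Otx2), −0.07 to 0.21 (Pou3f1), −0.07 to 0.07 (Utf1) and −0.06 to 0.06 (Cdh2).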
